A study of Mus musculus with 6 samples.

Results

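The cytochrome P450 genes of families 1 to 4 were described in mouse ileum, where the small intestine ends. Probes whose single gene symbol placed them in these families numbered 51 and covered 49 genes. Of these, 33 probes, 1 per gene, were above background in at least 1 sample and are the members described here, out of 12196 genes above background in the series. They were 3 of 3 probes of family 1, 19 of 33 of family 2, 1 of 1 of family 3 and 10 of 14 of family 4. Above background means here that the deposited detection p-value of the probe lay under 0.05 on most arrays of a sample. The other 18 probes passed in no sample: Cyp2a22, Cyp2b23, Cyp2c38, a second probe of Cyp2c44, Cyp2c50, Cyp2d10, Cyp2d13, Cyp2d37-ps, Cyp2g1, Cyp2j11, both probes of Cyp2j5, Cyp2t4, Cyp2w1, Cyp4a14, Cyp4f39, Cyp4f41-ps and Cyp4x1.

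The 6 samples were ileum of C57BL/6J mice in 5 groups: humanized gnotobiotic preweaned (n = 1), SPF postweaned (n = 1), SPF preweaned (n = 1), germ-free postweaned (n = 1) and germ-free preweaned (n = 2). Germ-free mice are raised without microbes, SPF (specific pathogen free) mice hold a conventional microbiota, and gnotobiotic mice a chosen one. The labels name no transgene, drug or other agent, say neither how many mice a sample holds nor what the humanized microbiota contained, and give an age, 3 weeks, only for gnotobiotic and germ-free mice. RNA was read on 1-colour arrays, 3 per sample and 6 for germ-free preweaned 1, 21 in all, and levels below are log2 of normalized intensity, so that a difference of 1 is 2-fold. Because a probe's brightness also depends on its own sequence, levels are compared between samples and never between genes.

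Cytochrome P450 enzymes are haem proteins of the endoplasmic reticulum that insert an oxygen atom into their substrates, with electrons passed on by P450 reductase. Families 1, 2 and 3 oxidize drugs, plant compounds, pollutants, steroids and arachidonic acid, and are induced through the receptors AHR, CAR and PXR. Family 4 hydroxylates the far end of fatty acids and of lipid mediators such as leukotrienes, and its Cyp4a genes are targets of PPARalpha. In the small intestine these enzymes sit mainly in the enterocytes of the villus, where they meet diet and microbial products before the liver does.

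Some libraries stood apart from their labels. Of 12 genes of suckling enterocytes, the summed intensity was 53448 in the humanized preweaned, 34131 in the SPF postweaned, 219039 in the SPF preweaned, 46773 in the germ-free postweaned, 281427 in the germ-free preweaned 1 and 56097 in the germ-free preweaned 2 ileum. The humanized and the second germ-free sample, although labelled preweaned, thus lay near the postweaned samples. Of 12 genes of the mature brush border, the sum was 31164 in germ-free preweaned 1 and between 105732 and 153769 in the other 5. All 6 genes of intestinal epithelium were above background in every sample, with sums between 211433 and 281258. Of 8 distal ileum genes, 5 were above background in the humanized sample, where Fabp6 and Slc10a2 were not, and 7 or 8 in the others. The arrays of germ-free preweaned 1 form 2 column sets of 3 that no label explains. Summed Y-linked transcripts read 1775 in the first set and 30 in the second. The array numbers in the files ran 4 to 6 in the humanized sample, 1 to 6 in germ-free preweaned 1 and 1 to 3 in germ-free preweaned 2, and lay between 7 and 21 in the other 3 samples. Since numbers 1 to 6 were used again, which arrays were run together is not stated by labels or headers. The correlation across genes was 0.983 between the humanized sample and germ-free preweaned 2, and 0.878 within the germ-free preweaned pair. Genes are not independent replicates.

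Germ-free preweaned 1 held the lowest level of 19 of the 33 members, of which 8 were not above background on most of its arrays. With its first column set alone it held the lowest level of 21, and with its second alone of 14. The lowest level lay in the humanized sample for 4, in the SPF postweaned for 3, in the SPF preweaned for 3, in the germ-free postweaned for 2 and in germ-free preweaned 2 for 2. The highest level lay in the SPF preweaned ileum for 9, in the humanized for 7, in the SPF postweaned for 6, in the germ-free postweaned for 5, in germ-free preweaned 1 for 2 and in germ-free preweaned 2 for 4. These counts of lowest and highest levels were not made over all genes, so nothing shows whether they are particular to the members. Members above background numbered 22 in the humanized, 31 in the SPF postweaned, 24 in the SPF preweaned, 22 in the germ-free postweaned and 17 in each germ-free preweaned sample, and 13 were above background in all 6. Of all 12196 genes, 6534 were above background in all 6. Of all probes, 45.7% to 50.3% were above background on the SPF postweaned arrays and 30.7% to 31.7% on those of germ-free preweaned 2. On the other arrays the share lay between 29.8% and 44.5%. How far the member counts follow these shares was not tested. The median SD of a member between the arrays of a sample was 0.0868 to 0.173 on the log2 scale. This SD covers the arrays, not mice.

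**Figure D1:**
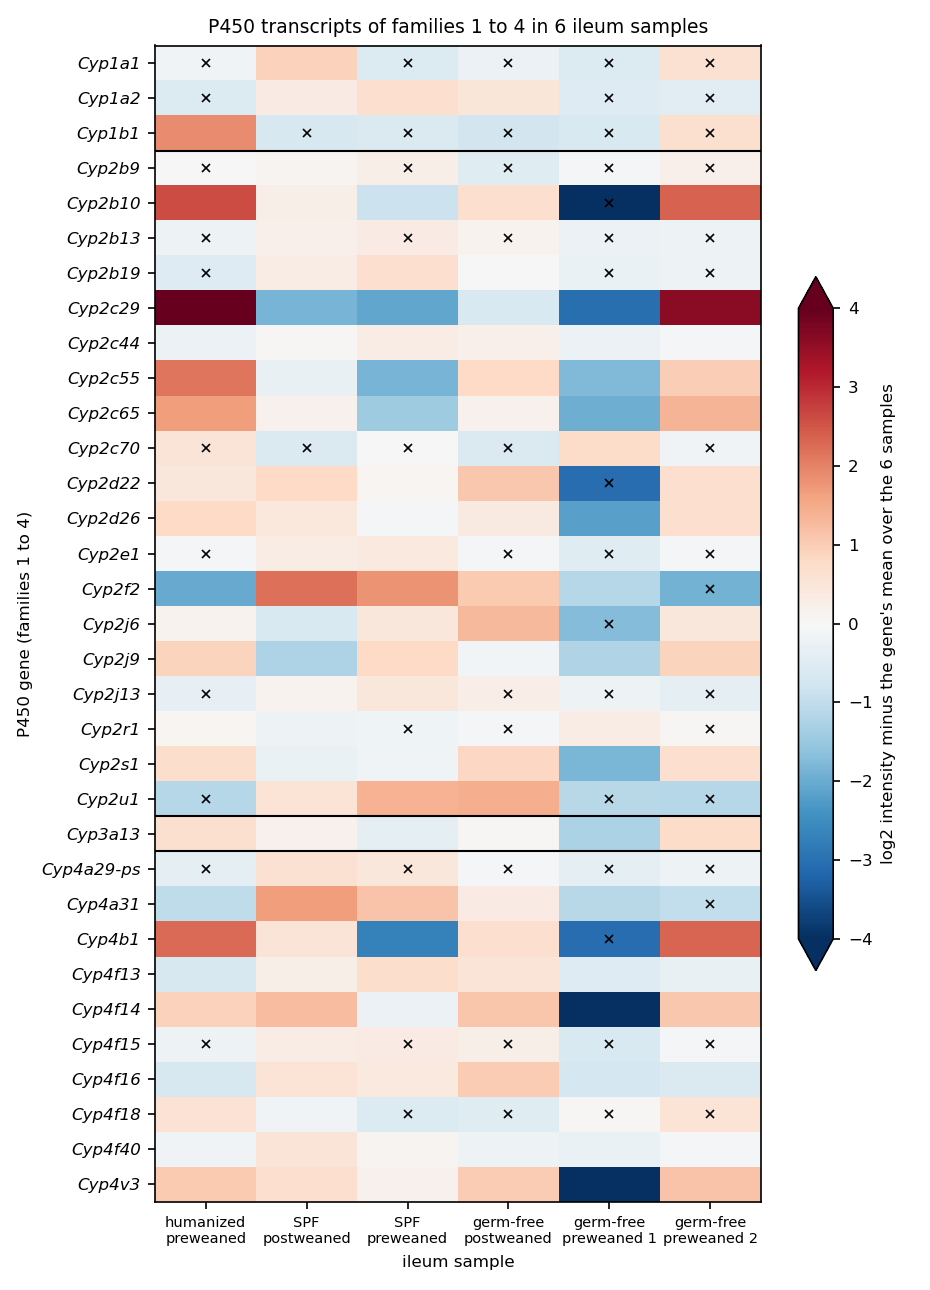
Levels of the 33 P450 genes (rows, ordered by family, families parted by lines) in the 6 ileum samples (columns), as log2 intensity minus the gene's mean over the 6 samples, on a colour scale that ends at 4 in each direction. A cross marks a sample in which the probe was not above background on most arrays. Cyp2b10, Cyp4f14 and Cyp4v3 lie at the low end of the scale in germ-free preweaned 1.

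In family 1 no gene was above background in every sample. Cyp1a1, which oxidizes polycyclic aromatic hydrocarbons and is the classical target of AHR, was above background only in the SPF postweaned ileum, at 7.17. Its level, not above background, was 6.11 in the humanized, 5.70 in the SPF preweaned, 6.02 in the germ-free postweaned, 5.70 in sample 1 and 6.87 in sample 2 of the germ-free preweaned ileum. Cyp1a2, an oxidase of arylamines and caffeine best known from liver, was above background at 7.33 in the SPF postweaned, 7.68 in the SPF preweaned and 7.47 in the germ-free postweaned ileum. It read 6.46 in the humanized, 6.49 in sample 1 and 6.56 in sample 2 of the germ-free preweaned ileum, on no array above background. Cyp1b1, which hydroxylates oestradiol and acts mainly outside the liver, was above background only in the humanized ileum, at 8.33. Elsewhere it read 5.80 in the SPF postweaned, 5.84 in the SPF preweaned, 5.71 in the germ-free postweaned, 5.83 in sample 1 and 7.07 in sample 2 of the germ-free preweaned ileum. Each of the 3 genes was thus read above background in a different set of samples.

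Of the Cyp2b genes, which respond to the receptor CAR, Cyp2b10 had the widest range of the 33 members. It read 14.16 in the humanized, 11.77 in the SPF postweaned, 10.69 in the SPF preweaned, 12.20 in the germ-free postweaned and 13.91 in the germ-free preweaned 2 ileum. In germ-free preweaned 1 it read 6.50 and was above background on 0 of 6 arrays. All arrays of the other 5 samples detected it. Cyp2b19, an arachidonic acid epoxygenase of keratinocytes, was above background at 7.85 in the SPF postweaned, 8.24 in the SPF preweaned and 7.56 in the germ-free postweaned sample. It read 7.04 in the humanized, 7.29 in sample 1 and 7.34 in sample 2 of the germ-free preweaned ileum without passing on most arrays. Cyp2b9 and Cyp2b13 were above background on most arrays only in the SPF postweaned sample, at 7.03 and 6.82, where their levels were not the highest: Cyp2b9 read 7.16 and Cyp2b13 6.96 in the SPF preweaned sample. The near-identical Cyp2b genes may share probe signal, which was not tested.

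Of the Cyp2c genes, 3 followed each other across most samples. Cyp2c29, an arachidonic acid epoxygenase that CAR induces in mouse liver, read 14.76 in the humanized, 8.91 in the SPF postweaned, 8.68 in the SPF preweaned, 10.17 in the germ-free postweaned, 7.75 in sample 1 and 14.40 in sample 2 of the germ-free preweaned ileum. Cyp2c55, which oxidizes arachidonic acid and is found in mouse gut, read 12.61 in the humanized, 10.16 in the SPF postweaned, 8.62 in the SPF preweaned, 11.27 in the germ-free postweaned, 8.71 in sample 1 and 11.45 in sample 2 of the germ-free preweaned ileum. Cyp2c65, found in the mouse stomach and intestine, read 12.82 in the humanized, 11.30 in the SPF postweaned, 9.72 in the SPF preweaned, 11.31 in the germ-free postweaned, 9.18 in sample 1 and 12.48 in sample 2 of the germ-free preweaned ileum. All 3 were highest in the humanized sample and second highest in germ-free preweaned 2, and lowest in germ-free preweaned 1 or the SPF preweaned sample. In the RefSeq gene order Cyp2c55 and Cyp2c65 are neighbours, and 1 gene lies between Cyp2c65 and Cyp2c29. Cyp2c44, another arachidonic acid epoxygenase that RefSeq names Cyp2c23, stayed between 7.91 and 8.46 in the 6 samples. Cyp2c70, which makes the muricholic bile acids of mouse liver, was above background only in germ-free preweaned 1, at 7.61.

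The 2 Cyp2d members were high in 5 samples and low in 1. Cyp2d22, the mouse gene most often set beside human CYP2D6, read 10.23 in the humanized, 10.58 in the SPF postweaned, 9.87 in the SPF preweaned, 10.87 in the germ-free postweaned, 6.73 in sample 1 and 10.45 in sample 2 of the germ-free preweaned ileum, and 0 of the 6 arrays of germ-free preweaned 1 detected it. Cyp2d26 read 13.62 in the humanized, 13.24 in the SPF postweaned, 12.74 in the SPF preweaned, 13.16 in the germ-free postweaned, 10.63 in sample 1 and 13.48 in sample 2 of the germ-free preweaned ileum. Within germ-free preweaned 1 the column sets of Cyp2d26 lay apart, at 9.11 and 12.16, and the second set was closer to the other samples.

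The Cyp2j genes encode arachidonic acid epoxygenases and hydroxylases outside the liver. Cyp2j6, found along the mouse small intestine, read 8.98 in the humanized, 8.25 in the SPF postweaned, 9.29 in the SPF preweaned, 10.13 in the germ-free postweaned, 7.12 in sample 1 and 9.29 in sample 2 of the germ-free preweaned ileum. In sample 1 it passed on 2 of 6 arrays and so was not above background. Its neighbour Cyp2j9, best known from brain, read 9.86 in the humanized, 7.74 in the SPF postweaned, 9.77 in the SPF preweaned, 8.87 in the germ-free postweaned, 7.77 in sample 1 and 9.87 in sample 2 of the germ-free preweaned ileum. Both were low in germ-free preweaned 1 and in the SPF postweaned sample. Cyp2s1, an epithelial P450 linked to retinoic acid, read 12.25 in the humanized, 11.29 in the SPF postweaned, 11.40 in the SPF preweaned, 12.38 in the germ-free postweaned, 9.71 in sample 1 and 12.23 in sample 2 of the germ-free preweaned ileum. It was above background on every array and lowest in germ-free preweaned 1.

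Cyp2f2 and Cyp2u1 followed another division of the samples. Cyp2f2, the enzyme that activates naphthalene in mouse lung, read 7.35 in the humanized, 11.58 in the SPF postweaned, 11.15 in the SPF preweaned, 10.40 in the germ-free postweaned, 8.21 in sample 1 and 7.47 in sample 2 of the germ-free preweaned ileum. Its arrays varied most in the 3 samples where it was high, with an SD of 0.670 in the SPF postweaned, 0.801 in the SPF preweaned and 1.05 in the germ-free postweaned ileum. Cyp2u1, a fatty acid hydroxylase by the human enzyme, read 5.67 in the humanized, 7.38 in the SPF postweaned, 8.22 in the SPF preweaned, 8.26 in the germ-free postweaned, 5.72 in sample 1 and 5.66 in sample 2 of the germ-free preweaned ileum. Of all 12196 genes, 391 (3.21%) were 2-fold or more apart between the humanized and both germ-free preweaned samples on one side and the other 3 samples on the other. Among the 33 members there were 3 such genes, Cyp2f2, Cyp2u1 and Cyp4a31, all lower in the humanized and germ-free preweaned samples. The 3 samples where they were higher are those with array numbers 7 to 21, and the other 3 those with numbers 1 to 6.

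Cyp3a13, the only member of family 3 and a major drug-oxidizing P450 of the mouse intestine, was above background on all 21 arrays. It read 15.13 in the humanized, 14.67 in the SPF postweaned, 14.13 in the SPF preweaned, 14.53 in the germ-free postweaned, 13.22 in sample 1 and 15.23 in sample 2 of the germ-free preweaned ileum. Germ-free preweaned 1 and the SPF preweaned sample were the lowest.

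Family 4 held genes of both kinds. Cyp4b1, which oxidizes short and medium fatty acids and activates the lung toxin ipomeanol, read 12.37 in the humanized, 10.62 in the SPF postweaned, 7.42 in the SPF preweaned, 10.78 in the germ-free postweaned, 7.06 in sample 1 and 12.44 in sample 2 of the germ-free preweaned ileum. It was above background on 2 of 3 arrays of the SPF preweaned sample and on 0 of 6 arrays of germ-free preweaned 1. Cyp4f14, a hydroxylase of leukotriene B4 and of vitamin E and K side chains, read 14.84 in the humanized, 15.15 in the SPF postweaned, 13.67 in the SPF preweaned, 15.03 in the germ-free postweaned, 9.75 in sample 1 and 14.98 in sample 2 of the germ-free preweaned ileum. Cyp4v3, the mouse counterpart of the human fatty acid hydroxylase CYP4V2, read 15.11 in the humanized, 14.75 in the SPF postweaned, 14.24 in the SPF preweaned, 15.08 in the germ-free postweaned, 10.01 in sample 1 and 15.21 in sample 2 of the germ-free preweaned ileum. All 3 were lowest in germ-free preweaned 1 and second lowest in the SPF preweaned sample. For Cyp4v3 the column sets of germ-free preweaned 1 read 8.56 and 11.46, and for Cyp4f14 they read 9.89 and 9.61.

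The other Cyp4f genes and Cyp4a31 were not singly low in germ-free preweaned 1. Cyp4f13 read 11.02 in the humanized, 11.89 in the SPF postweaned, 12.34 in the SPF preweaned, 12.15 in the germ-free postweaned, 11.14 in sample 1 and 11.35 in sample 2 of the germ-free preweaned ileum. It lies next to Cyp4f14 in the RefSeq gene order, yet the log2 difference of germ-free preweaned 1 from germ-free preweaned 2 was -0.21 for Cyp4f13 and -5.23 for Cyp4f14. Cyp4f16 read 11.41 in the humanized, 12.59 in the SPF postweaned, 12.45 in the SPF preweaned, 13.07 in the germ-free postweaned, 11.36 in sample 1 and 11.47 in sample 2 of the germ-free preweaned ileum. Cyp4f18, a leukotriene B4 hydroxylase of mouse neutrophils, was above background at 7.87 in the humanized and 7.14 in the SPF postweaned sample. It read 6.74 in the SPF preweaned, 6.78 in the germ-free postweaned, 7.32 in sample 1 and 7.82 in sample 2 of the germ-free preweaned ileum without passing on most arrays. Cyp4a31, of the subfamily that PPARalpha controls, read 7.92 in the humanized, 10.60 in the SPF postweaned, 10.10 in the SPF preweaned, 9.27 in the germ-free postweaned, 7.83 in sample 1 and 7.96 in sample 2 of the germ-free preweaned ileum. In sample 2 it passed on 1 of 3 arrays and so was not above background. Cyp2b9, Cyp2b13, Cyp2c44, Cyp2c70, Cyp2e1, Cyp2j13, Cyp2r1, Cyp3a13, Cyp4a29-ps, Cyp4f15 and Cyp4f40, 11 members, lay within 2-fold in all 6 comparisons between groups. Of these, Cyp2e1, the ethanol oxidase, was above background in both SPF samples, and Cyp2r1, a vitamin D 25-hydroxylase, in the humanized, the SPF postweaned and the germ-free preweaned 1 ileum.

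The germ-free preweaned samples, the only ones that share a group, differed in 15 of the 33 members, among them Cyp2b10, 3 Cyp2c genes, both Cyp2d genes, Cyp4b1, Cyp4f14 and Cyp4v3. In sample 1 all 15 were 2-fold or more lower than in sample 2, where 9.92% of all 12196 genes were, and 0 were higher, where 9.28% of all genes were. The median difference was -0.49 over the members and -0.01 over all genes. Cyp2b10 was at least 97.5-fold lower in sample 1, where no array detected it, Cyp2c29 100-fold lower and Cyp4b1 at least 35.1-fold lower. For Cyp4f14 the fold was 37.5 and for Cyp4v3 36.8, again lower in sample 1. Smaller folds, lower in sample 1, were at least 8.84 for Cyp2d22, 9.84 for Cyp2c65, 7.18 for Cyp2d26, 6.68 for Cyp2c55, 5.71 for Cyp2s1, 4.47 for Cyp2j6, 4.30 for Cyp2j9 and 4.01 for Cyp3a13. Only 2 of 6 arrays of sample 1 detected Cyp2j6, and no bound was set for its fold. Cyp1a1 and Cyp1b1 also lay past 2-fold, but were above background in neither sample. The smallest difference past 2-fold was -1.17 on the log2 scale, of Cyp1a1, and the nearest one short of it was 0.89, of Cyp2c70, higher in sample 1.

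Other gene groups moved with this difference. Beside it, 11 of 12 genes of suckling enterocytes were 2-fold or more higher and 10 of 12 mature brush border genes 2-fold or more lower in sample 1 than in sample 2. Sucrase-isomaltase (Sis) read 9.04 in sample 1 and 15.03 in sample 2. Of 11 hepatocyte genes, 6 were above background in any sample. Of these 6, 4 were 2-fold or more higher in sample 1 and 1, Apoa2, 2-fold or more lower. Their summed intensity was 37097 in sample 1 against 1714. The brightest in sample 1 were Ttr, at 14.75 against 8.53, and Cps1, at 13.10 against 9.74. Albumin (Alb) was above background in neither sample. Of 10 pancreatic acinar genes, 7 were on the array and 4 were above background in any sample. The sum over these 4 was 7766 in sample 1 and 1638 in sample 2. Of the 4, 2 (Ctrb1 and Cela1) were 2-fold or more higher in sample 1 and 0 lower. Ctrb1 differed most, and Cpa1 was on no array of either sample above background. In bulk tissue, fewer cells of a type and less RNA per cell cannot be told apart. The part of these groups in the P450 difference was not tested. Between the column sets of sample 1, 3 members (Cyp2c65, Cyp2d26 and Cyp4v3) were 2-fold or more higher in the second set and 0 were lower. The lower level of 15 members held with either set alone.

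**Figure D2:**
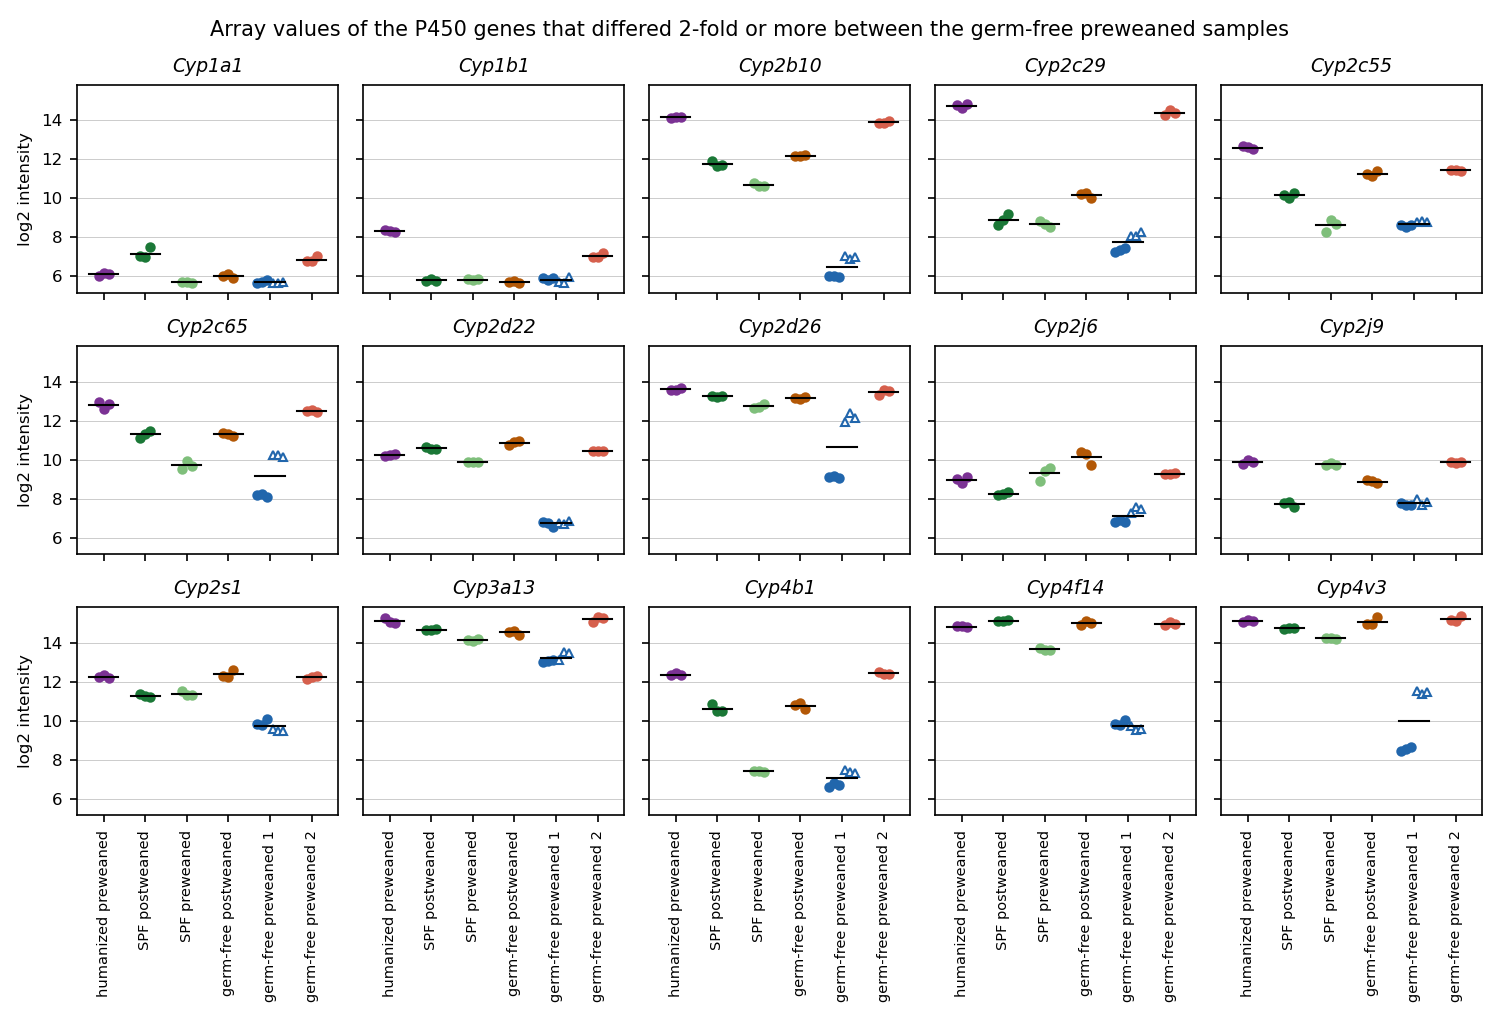
Log2 intensity on every array (points) and the sample's level (line) of the 15 P450 genes that differed 2-fold or more between the germ-free preweaned samples, by sample. Filled circles and open triangles in germ-free preweaned 1 are its first and second column sets. Cyp4v3 read 8.56 and 11.46 in the 2 sets, both below every other sample.

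The promoters of the 5 members whose levels lay 5 or more apart on the log2 scale within the germ-free pair are shown, because these genes moved together there. Each covers 250 bases before to 50 bases after the transcription start, from RefSeq on GRCm38.p6. Capitals mark 4 motifs on either strand. The first is AGGTCA, the half-site that many nuclear receptors bind. The variant half-site is spelled AGTTCA in the search. The core of the AHR response element is spelled GCGTG here. The TATA box is taken as TATAAA alone.
Cyp2b10 (chr7:25897408-25897707, plus strand): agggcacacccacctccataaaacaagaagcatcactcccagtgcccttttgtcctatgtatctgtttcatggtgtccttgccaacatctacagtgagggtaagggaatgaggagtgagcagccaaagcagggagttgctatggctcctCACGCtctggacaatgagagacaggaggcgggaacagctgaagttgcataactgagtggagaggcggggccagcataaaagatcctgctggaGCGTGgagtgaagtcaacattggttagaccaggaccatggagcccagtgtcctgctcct
Cyp2c29 (chr19:39286835-39287134, plus strand): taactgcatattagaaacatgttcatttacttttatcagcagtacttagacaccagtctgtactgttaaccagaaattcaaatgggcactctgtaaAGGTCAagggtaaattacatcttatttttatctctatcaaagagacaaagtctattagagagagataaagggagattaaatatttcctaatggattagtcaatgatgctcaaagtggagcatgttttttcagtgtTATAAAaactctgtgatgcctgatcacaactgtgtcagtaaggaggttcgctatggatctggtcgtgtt
Cyp4b1 (chr4:115647672-115647971, minus strand): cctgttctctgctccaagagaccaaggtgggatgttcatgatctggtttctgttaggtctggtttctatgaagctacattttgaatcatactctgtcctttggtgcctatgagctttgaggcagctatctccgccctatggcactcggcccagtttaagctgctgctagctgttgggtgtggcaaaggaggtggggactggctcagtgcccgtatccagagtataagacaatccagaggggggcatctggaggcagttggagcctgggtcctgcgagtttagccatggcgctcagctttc
Cyp4f14 (chr17:32917307-32917606, minus strand, the first of 4 listed starts): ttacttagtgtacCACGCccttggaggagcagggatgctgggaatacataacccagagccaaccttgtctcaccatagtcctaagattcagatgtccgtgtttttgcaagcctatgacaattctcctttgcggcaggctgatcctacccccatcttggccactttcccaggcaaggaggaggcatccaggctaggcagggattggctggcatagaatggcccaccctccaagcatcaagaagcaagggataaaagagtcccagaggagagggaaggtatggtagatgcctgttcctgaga
Cyp4v3 (chr8:45333114-45333413, minus strand): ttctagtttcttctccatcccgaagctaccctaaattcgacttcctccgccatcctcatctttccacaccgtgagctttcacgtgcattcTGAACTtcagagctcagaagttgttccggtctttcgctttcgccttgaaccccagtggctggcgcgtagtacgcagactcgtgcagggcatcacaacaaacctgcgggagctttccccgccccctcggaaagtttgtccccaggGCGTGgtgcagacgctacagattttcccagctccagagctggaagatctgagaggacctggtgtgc

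No motif was found in all 5 windows. The AHR core was found 2 times in the window of Cyp2b10 and 1 time each in those of Cyp4f14 and Cyp4v3. The half-site and the TATA box were found 1 time each in that of Cyp2c29, and the variant half-site 1 time in that of Cyp4v3. The window of Cyp4b1 held none of these letters. Among 27025 promoters of the same length, the half-site was found in 16%, the variant in 14%, the AHR core in 32.5% and the TATA box in 14.2%. Among the 29 members with a promoter in the table, the half-site was found in 7 (24.1%), the variant in 2 (6.9%), the AHR core in 9 (31%) and the TATA box in 8 (27.6%). A match is a description of letters and not a binding site.

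Humanized against germ-free preweaned ileum asked how a humanized microbiota relates to P450 transcripts before weaning. The answer depended on the germ-free sample. Against the mean of both, 12 of 33 members were 2-fold or more higher in the humanized ileum, where 4.16% of all genes were, and 0 were lower, where 2.34% of all genes were. These included Cyp2c29 at 12.9-fold, Cyp2c55 at 5.78-fold, Cyp4v3 at 5.66-fold, Cyp4f14 at 5.54-fold and Cyp2c65 at 3.95-fold. Cyp1b1, on no array of the germ-free preweaned samples above background, was at least 1.63-fold higher. For Cyp2b10 and Cyp4b1, on 0 of 6 arrays of germ-free preweaned 1 above background, the bounds were at least 11.7-fold and at least 5.67-fold. Here and below, "at least" sets the brighter sample against the lowest signal that counted as above background in the dimmer one. Counts "at the bounds" use that value for a member undetected in the dimmer sample, and 0 where no fold remained. Against germ-free preweaned 1 alone, 14 were higher (10.2% of all genes) and 0 lower (8.16%), among them Cyp2b10 at least 116-fold and Cyp2c29 129-fold. Against germ-free preweaned 2 alone, 2 were higher (1.48%) and 0 lower (0.418%): Cyp2c55 at 2.24-fold and Cyp1b1, undetected in germ-free preweaned 2, at least 1.29-fold by the bound. The other 31 members lay within 2-fold. Beside these, against the mean of both, 10 of 12 genes of suckling enterocytes were lower by 2-fold or more in the humanized ileum and 0 higher. Of 12 mature brush border genes, 5 were 2-fold or more higher and 1 lower. Against germ-free preweaned 2 alone, 0 of the suckling genes were 2-fold apart, and 0 brush border genes were higher and 1 lower. The part of these in the result was not tested. limma called 0 members at an adjusted p under 0.05, with an adjusted p of 0.9999 for Cyp2b10 (log2 difference 3.95, SE 3.51).

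**Figure D3:**
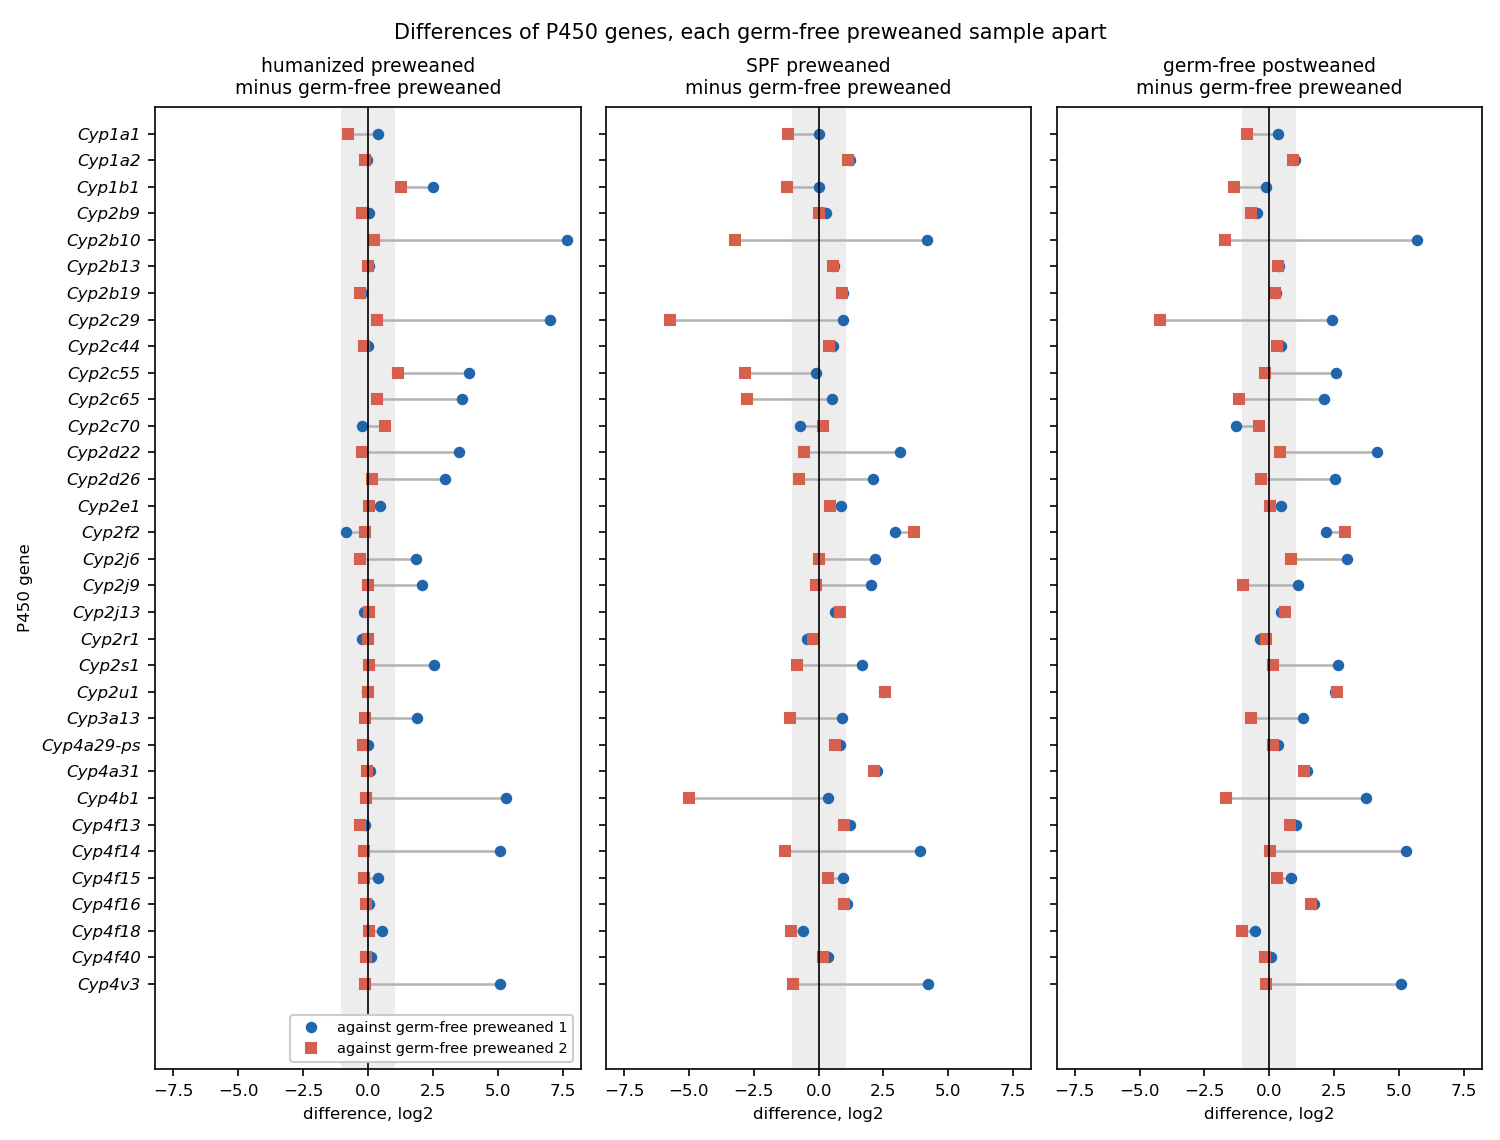
Log2 differences of the 33 P450 genes (rows) for the humanized preweaned, the SPF preweaned and the germ-free postweaned ileum, each minus germ-free preweaned 1 (circles) and minus germ-free preweaned 2 (squares), joined by a line. The grey band is less than 2-fold. For Cyp2b10 in SPF preweaned ileum the values were 4.18 and -3.22, on opposite sides of 0.

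SPF against germ-free preweaned ileum asked how a conventional microbiota relates to these genes before weaning. Cyp2f2, Cyp4a31 and Cyp2u1 were higher in SPF against either germ-free sample, and Cyp2b10 and Cyp4f14 were higher against one and lower against the other. The samples on either side of this comparison carry different array numbers (7 to 21 in SPF, 1 to 6 in germ-free preweaned). Group and array numbers thus cannot be told apart for any member. Against the mean of both germ-free preweaned samples, 10 of 33 members were 2-fold or more higher in SPF (11.5% of all genes) and 4 lower (11.1%). The higher ones were led by Cyp2f2 at least 8.39-fold, Cyp4a31 at 4.61-fold, Cyp4v3 at 3.09-fold, Cyp4f14 at 2.47-fold, Cyp4f13 at 2.14-fold and Cyp2j6 at 2.13-fold. Cyp2u1, undetected in both germ-free samples, was at least 1.51-fold higher. The lower ones were Cyp2c29 at 5.24-fold, Cyp4b1 at 5.02-fold, Cyp2c55 at 2.75-fold and Cyp2c65 at 2.17-fold. Beside these, 6 of 12 genes of suckling enterocytes were 2-fold or more higher in SPF and 1 lower. Of 12 mature brush border genes, 5 were higher and 1 lower, and the part of both groups was not tested.

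With the germ-free samples apart, the counts in SPF preweaned ileum were 14 higher (15.2% of all genes) and 0 lower (14.6%) against sample 1, and 4 higher (12.6%) and 10 lower (13%) against sample 2. At the bounds they were 12 higher and 0 lower against sample 1, and 2 higher and 7 lower against sample 2. Cyp2b10 was at least 10.4-fold higher in SPF than in sample 1 and 9.34-fold lower than in sample 2. Cyp4f14 was 15.1-fold higher than in sample 1 and 2.48-fold lower than in sample 2. Cyp2c29 had a log2 difference of 0.93 from sample 1 and was 52.5-fold lower than in sample 2, and Cyp4b1 0.36 from sample 1 and 32.3-fold lower than in sample 2. Cyp2f2 was 7.70-fold higher than in sample 1 and at least 9.14-fold higher than in sample 2, and Cyp4a31 4.81-fold and 4.41-fold higher. Only 1 of 3 arrays of sample 2 detected Cyp4a31, and no bound was set for that fold. limma called 0 members. The unadjusted p was 0.00557 for Cyp2f2 (log2 difference 3.31, SE 0.52), 0.00534 for Cyp2u1 (2.53, SE 0.40) and 0.00848 for Cyp4a31 (2.20, SE 0.40), each with an adjusted p of 0.489. Under the authors' table the split was 23 higher and 2 lower, and with that table centred on each sample's median gene 6 and 6.

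Germ-free postweaned against preweaned ileum asked how these transcripts differ across weaning in the absence of microbes. Cyp2f2, Cyp2u1, Cyp4a31 and Cyp4f16 were higher after weaning against either germ-free preweaned sample, and Cyp2b10, Cyp2c29, Cyp2c65 and Cyp4b1 were higher against sample 1 and lower against sample 2. The array numbers divide these samples too, so group and array numbers cannot be told apart for any member. Cyp4f16 read 11.36 to 11.47 in the humanized and germ-free preweaned samples and 12.45 to 13.07 in the SPF and germ-free postweaned samples. Against the mean of both germ-free preweaned samples, 13 of 33 were 2-fold or more higher (11.6% of all genes) and 0 lower (12.7%). The higher ones were led by Cyp4f14 at 6.32-fold, Cyp4v3 at 5.53-fold, Cyp2j6 at 3.81-fold and Cyp4f16 at 3.14-fold. With a germ-free sample on whose arrays the probe was not above background set to its bound, Cyp2f2 was at least 4.997-fold, Cyp2d22 at least 3.98-fold and Cyp2b10 at least 3.01-fold higher, and Cyp2u1 at least 1.55-fold. Cyp4b1 came to at least 1.87-fold. Beside these, 9 of 12 genes of the mature brush border were 2-fold or more higher and 0 lower in the germ-free postweaned ileum, and 10 of 12 genes of suckling enterocytes were lower by 2-fold or more. Of 4 Y-linked transcripts 3 were lower by 2-fold or more, with sums of 129 in the postweaned sample, against 453 in sample 1 and 1624 in sample 2 of the preweaned ileum. The part of these in the result was not tested.

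Against germ-free preweaned 1, 18 were 2-fold or more higher in the germ-free postweaned ileum (16% of all genes) and 1 lower (17%). The single lower one was Cyp2c70, at least 1.06-fold by the bound. Against germ-free preweaned 2, 4 were higher (8.59%) and 6 lower (10.1%). At the bounds, 17 were higher and 0 lower against sample 1, and 3 higher and 4 lower against sample 2. Cyp2b10 was at least 29.7-fold higher than in sample 1 and 3.28-fold lower than in sample 2, and Cyp2c29 5.33-fold higher and 18.8-fold lower. Cyp4v3 was 33.6-fold higher than in sample 1, with a log2 difference of -0.13 from sample 2. Against both samples, Cyp4f16 was higher at 3.27-fold and 3.02-fold, Cyp2f2 at 4.59-fold and at least 5.44-fold, and Cyp4a31 at 2.72-fold and 2.49-fold. Only 1 of 3 arrays of sample 2 detected Cyp4a31, and no bound was set for that fold. limma called 0 members, with an adjusted p of 0.598 for Cyp4f16 (log2 difference 1.65, SE 0.40).

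SPF postweaned against SPF preweaned ileum asked the weaning question in conventional mice, with 1 sample on each side and no replicate check. Cyp4b1, Cyp2c65, Cyp2c55, Cyp4f14 and Cyp2b10 were higher after weaning, and Cyp2j9 and Cyp2j6 lower. Of 33 members, 6 were 2-fold or more higher (10.5% of all genes) and 2 lower (8.64%). At the bounds, 5 were higher and 2 lower. Cyp4b1 was 9.16-fold higher in the SPF postweaned ileum, Cyp2c65 2.99-fold, Cyp2c55 2.91-fold, Cyp4f14 2.78-fold and Cyp2b10 2.12-fold, and Cyp1a1 was above background only after weaning. Cyp2j9 was 4.08-fold and Cyp2j6 2.07-fold lower. Beside these, in the SPF postweaned ileum 10 of 12 genes of suckling enterocytes were lower by 2-fold or more, and 4 of 12 mature brush border genes 2-fold or more higher. Of 4 Y-linked transcripts 3 were lower by 2-fold or more, with sums of 73 in the SPF postweaned and 1279 in the SPF preweaned sample. The part of these in the result was not tested. limma called 0 members, with an adjusted p of 0.956 for Cyp4b1 (log2 difference 3.20, SE 2.96). The split was 6 higher and 1 lower with arrays scaled to their 75th percentile, and 4 and 3 in the authors' table.

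SPF against germ-free postweaned ileum asked how a conventional microbiota relates to these genes after weaning, again with 1 sample on each side. Cyp2j6, Cyp2c29 and Cyp2s1 were lower in SPF, and Cyp4a31 and Cyp2f2 higher. Of 33 members, 3 were 2-fold or more higher in SPF (9.02% of all genes) and 5 lower (6.37%). At the bounds, 2 were higher and 5 lower. Cyp4a31 was 2.51-fold and Cyp2f2 2.25-fold higher, and Cyp1a1 was above background in SPF only. Cyp2j6 was 3.70-fold lower, Cyp2c29 2.38-fold, Cyp2j9 2.19-fold, Cyp2c55 2.16-fold and Cyp2s1 2.12-fold. For Cyp2f2 the log2 difference was 1.17, and the SD between arrays was 0.670 in SPF and 1.05 in germ-free postweaned ileum. Beside these, 7 of 10 genes of the proximal small intestine were 2-fold or more higher and 3 of 8 distal ileum genes 2-fold or more lower in SPF, and their part was not tested. limma called 0 members, with an adjusted p of 0.9998 for Cyp4a31 (log2 difference 1.33, SE 0.46). The split was 2 higher and 6 lower with arrays scaled to their 75th percentile, 5 and 1 in the authors' table, and 1 and 5 with that table centred.

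**Figure D4:**
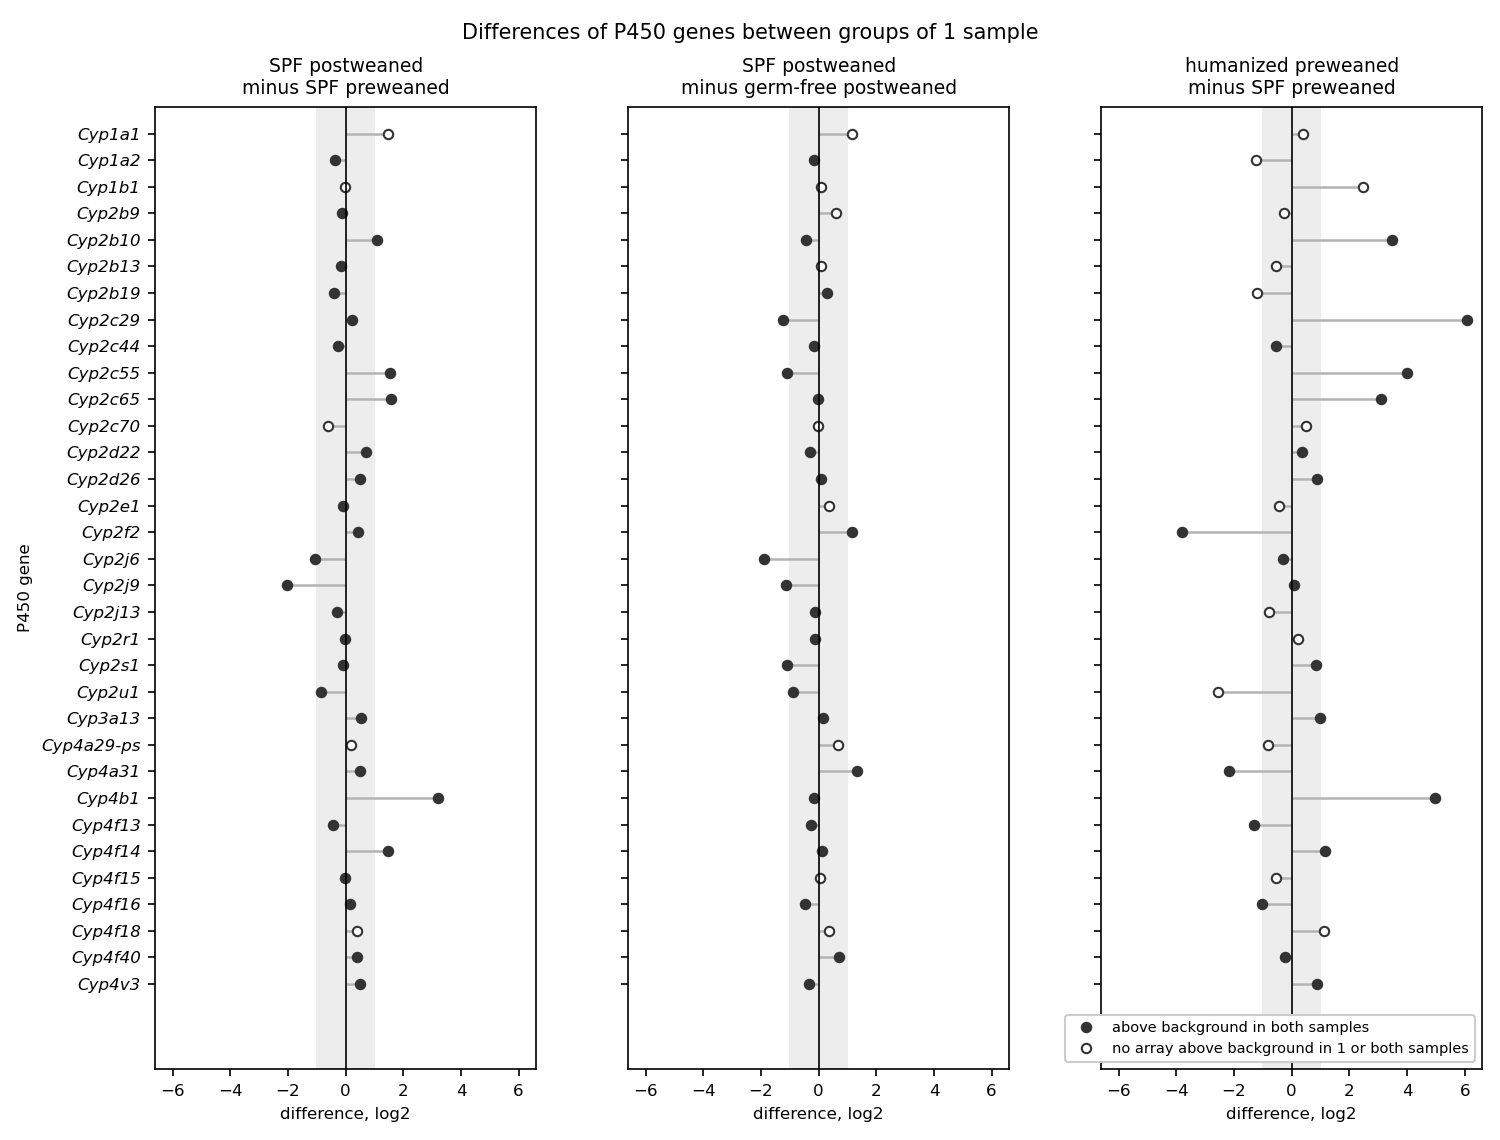
Log2 differences of the 33 P450 genes (rows) in 3 comparisons of 1 sample with 1 sample. Filled points were above background on at least 1 array of the dimmer sample and open points on none of its arrays. Some filled points were on no array of the brighter sample above background, although the legend says both. Cyp2j13 in SPF postweaned minus germ-free postweaned is 1 of these. The grey band is less than 2-fold. Cyp2c29 at 6.07 and Cyp4b1 at 4.95 lie farthest right in the humanized preweaned minus SPF preweaned panel.

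Humanized against SPF preweaned ileum compared the microbiotas before weaning. The array numbers again divide these samples, so group and array numbers cannot be told apart for any member. Cyp2c29, Cyp2c55, Cyp2c65, Cyp4b1 and Cyp2b10 were higher in the humanized ileum, and Cyp2f2, Cyp2u1, Cyp4a31, Cyp4f13 and Cyp4f16 lower. Of 33 members, 8 were 2-fold or more higher (15.3% of all genes) and 7 lower (14.6%). At the bounds, 6 were higher and 4 lower. Cyp2c29 was 67.4-fold higher in the humanized sample, Cyp4b1 31.0-fold, Cyp2c55 15.9-fold, Cyp2b10 11.1-fold, Cyp2c65 8.57-fold and Cyp4f14 2.24-fold, with Cyp1b1 at least 1.91-fold and Cyp4f18 at least 1.39-fold. Cyp2f2 was 13.9-fold lower, Cyp4a31 4.54-fold, Cyp4f13 2.49-fold and Cyp4f16 2.05-fold, with Cyp2u1 at least 1.95-fold, Cyp2b19 at least 1.91-fold and Cyp1a2 at least 1.34-fold lower. Beside these, in the humanized sample 10 of 12 genes of suckling enterocytes were lower by 2-fold or more, and their part was not tested. limma called 0 members, with an adjusted p of 0.484 for Cyp2f2 (log2 difference -3.80, SE 0.61) and 0.494 for Cyp2c55 (3.99, SE 1.56). The split was 12 higher and 5 lower with arrays scaled to their 75th percentile, 6 and 16 in the authors' table, and 13 and 6 with that table centred.

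The interaction asked whether the step across weaning differed between SPF and germ-free ileum. Of 33 members, 5 had a step 2-fold or more higher in SPF (17.5% of all genes) and 11 a lower one (16.9%). The largest were Cyp2u1 at -3.42 (SE 0.60, unadjusted p 0.00787), Cyp2j6 at -2.98, Cyp4b1 at 2.17, Cyp2f2 at -2.14 and Cyp2j9 at -2.08 on the log2 scale. Cyp2u1 was above background on no array of the germ-free preweaned samples, and no bound was set for its value. Of the groups in the interaction, only germ-free preweaned ileum carries array numbers 1 to 6. The interaction and the array numbers thus cannot be told apart. limma called 0 members, with an adjusted p of 0.761 for Cyp2u1. Without germ-free preweaned 1 the counts were 10 higher and 7 lower, and without germ-free preweaned 2 they were 1 and 15.

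Across the 6 comparisons between groups, limma called 0 of 198 member tests, and 0 with its trended and robust prior. Of these tests, 11, in 5 members (Cyp1b1, Cyp2f2, Cyp2u1, Cyp4a31 and Cyp4f16), had an unadjusted p under 0.05. Of all 12196 genes, such a limma p was held by 521 in SPF against germ-free postweaned ileum and 1182 in the preweaned. Across weaning it was held by 627 in SPF and 927 in germ-free ileum. For the humanized sample it was 70 against germ-free and 1241 against SPF preweaned ileum. Whether the members exceed these shares was not tested. The smallest adjusted p of a member was 0.484. The 3 comparisons with germ-free preweaned ileum share those samples, so their values are not independent of each other. Of the 33 members, 22 were 2-fold or more apart in at least 1 of the 6. This count was not made over all genes, so nothing shows whether it is particular to the members.

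Genes that serve these enzymes were read as well. Of 15 electron transfer and haem genes, 4 were 2-fold or more higher and 4 lower in germ-free preweaned 1 than in sample 2. Por, the reductase that feeds electrons to these P450s, read 14.05 in the humanized, 13.32 in the SPF postweaned, 12.73 in the SPF preweaned, 12.19 in the germ-free postweaned, 11.94 in sample 1 and 13.91 in sample 2 of the germ-free preweaned ileum. Alas1, the first enzyme of haem synthesis, read 13.53, 12.88, 12.42, 11.83, 11.75 and 13.11 in the same samples. Both were lowest in germ-free preweaned 1 and highest in the humanized sample. In the humanized against the SPF preweaned ileum, 6 of the 15 were 2-fold or more higher and 1 lower. The lower one was Cyb5r3, a reductase of cytochrome b5, chosen here after its values were seen. It read 5.71 in the humanized, 13.19 in the SPF postweaned, 13.13 in the SPF preweaned and 13.16 in the germ-free postweaned ileum, and 5.66 in sample 1 and 5.71 in sample 2 of the germ-free preweaned ileum, on no array of these or of the humanized sample above background. It thus followed the same division by array numbers as Cyp2f2.

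Of 18 regulators, 3 were 2-fold or more higher and 6 lower in germ-free preweaned 1 than in sample 2. Nr1i2, which encodes PXR, read 10.83 in the humanized, 10.26 in the SPF postweaned, 10.24 in the SPF preweaned, 9.97 in the germ-free postweaned, 9.65 in sample 1 and 10.82 in sample 2 of the germ-free preweaned ileum. Nr1i3, which encodes CAR, read 9.95, 11.20, 10.34, 10.55, 9.11 and 10.25 in the same samples. Vdr, the vitamin D receptor, read 13.65, 12.10, 11.13, 12.04, 10.41 and 13.72. All 3 were lowest in germ-free preweaned 1, and Nr1i3 was highest in the SPF postweaned sample, unlike Cyp2b10.

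Targets of PPARalpha and AHR outside these families were read as well. Of 16 PPARalpha targets other than Cyp4, 0 were 2-fold or more higher and 9 lower in the SPF postweaned than in the SPF preweaned ileum (median -1.63, against -0.04 over all genes). Of the 2 Cyp4a members, Cyp4a31 read 10.60 in the SPF postweaned and 10.10 in the SPF preweaned ileum. The other, Cyp4a29-ps, was above background only in the SPF postweaned sample. The part of PPARalpha in these levels was not tested. Of 4 AHR targets other than Cyp1, 0 were 2-fold or more apart between SPF and germ-free postweaned ileum, where Cyp1a1 was above background in SPF only. Ahrr, the repressor of AHR, was above background on all arrays of the humanized, SPF postweaned and germ-free preweaned 2 samples, at 8.06, 7.06 and 8.26, and on none of the other 3. Of 13 P450 genes of other families, 7 were above background in any sample. Cyp27a1, the sterol hydroxylase, read between 11.40 (SPF preweaned) and 12.53 (germ-free postweaned) in 5 samples and 7.26 in germ-free preweaned 1, low in the same sample as Cyp2d22 and Cyp4v3.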

How the data were processed

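Ileum RNA of 6 samples was read on 21 Phalanx Mouse OneArray arrays, from 2.5 µg of RNA with an RNA integrity number of at least 8, per the labels' protocols. The deposited scanner tables hold background-subtracted intensity per probe and array with a detection p-value, per the file headers. The aligner or genome build was not given in the sources used here. The authors' value table matched the mean of each sample's array intensities, was on a linear scale, not centred, and served as an alternative. The planned background correction was not applied, because the deposited intensity is already background-subtracted.

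Arrays were quantile normalized together. Negative values then became 0, and log2 was taken after adding 50. Arrays were averaged within column sets, then within samples. Of 26423 probes, 22553 carried 1 symbol, 237 several and 3633 none. Symbols were updated through RefSeq (19966 current, 2151 by synonym, 436 kept). A gene was represented by its probe of highest mean among those above background in at least 1 sample. On each array 29.8% to 50.3% of probes were above background, and the number of arrays limits the precision.

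limma fitted 5 group means to 12196 genes, with Benjamini-Hochberg adjustment over all of them. The spread came from the germ-free preweaned pair alone (1 residual degree of freedom), which nothing says are separate mice, so the p-values reflect how far those samples lie apart, and this spread may be technical. Counts of 2-fold differences are descriptions. Members 2-fold or more apart in a comparison were named. The members, lists and tests were chosen with earlier results of these data known. Near-identical genes may share probe signal. The fit was tested on simulated data. Alternatives were another scaling, offset and filter, the mean of a gene's probes, the authors' table, the column sets apart, limma's trended prior, and each germ-free preweaned sample left out. R 4.3.3, limma 3.58.1, Python 3.11.15, pandas 2.3.3 and matplotlib 3.10.9 were used.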

Additional observations from a re-analysis of the deposited data

Results flagged for a closer look

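Probes that carry several gene symbols lay outside the rule for members, and 2 of them with Cyp3a symbols were above background. The probe of Cyp3a44, Cyp3a41a, Cyp3a41b and Cyp3a11 read 11.64 in the humanized, 9.80 in the SPF postweaned, 8.84 in the SPF preweaned, 9.74 in the germ-free postweaned, 8.13 in sample 1 and 11.53 in sample 2 of the germ-free preweaned ileum, as log2 intensity. Its highest and lowest samples were those of Cyp2c29. The probe of Cyp3a59, Cyp3a25 and Cyp3a57 read 11.74 in the humanized, 11.06 in the SPF postweaned, 9.06 in the SPF preweaned, 8.67 in the germ-free postweaned, 10.35 in sample 1 and 11.03 in sample 2 of the germ-free preweaned ileum. It was lowest in the germ-free postweaned sample. Neither probe can be assigned to 1 gene.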

How the results depend on the processing

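Of 85 named differences, 0 turned direction under 11 of 13 settings, each over the values it could give. Among these settings, limma's trended prior, the mean of a gene's probes and the changed filters leave a named member's levels unchanged. They could therefore turn no direction. Without germ-free preweaned replicate 1, 13 of 70 turned, and without replicate 2, 3 of 70. The log2 values of these without replicate 1 and without replicate 2, in that order, were, for humanized minus germ-free preweaned, -0.22 and 3.50 (Cyp2d22), -0.0042 and 2.10 (Cyp2j9), -0.062 and 5.31 (Cyp4b1), -0.14 and 5.08 (Cyp4f14) and -0.10 and 5.10 (Cyp4v3). For SPF minus germ-free preweaned they were -5.71 and 0.93 (Cyp2c29), -2.77 and 0.53 (Cyp2c65), -0.57 and 3.14 (Cyp2d22), -5.02 and 0.36 (Cyp4b1), -1.31 and 3.92 (Cyp4f14) and -0.97 and 4.23 (Cyp4v3). For germ-free postweaned minus preweaned they were -1.71 and 5.69 (Cyp2b10), -0.18 and 2.56 (Cyp2c55), -0.32 and 2.52 (Cyp2d26), -1.66 and 3.71 (Cyp4b1) and -0.13 and 5.07 (Cyp4v3). Leaving out either sample leaves no residual degree of freedom, so these are values with no test. Across both omissions, members 2-fold higher ranged over 2 to 14 in humanized against germ-free preweaned, 4 to 14 in SPF against germ-free preweaned (lower 0 to 10), 4 to 18 in germ-free postweaned against preweaned (lower 1 to 6), and 1 to 10 in the interaction (lower 7 to 15).

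Counts also moved with other settings, and the cause was not tested. With 75th percentile scaling, 1 member was lower in SPF postweaned against preweaned. In the authors' table, 2 were higher in germ-free preweaned 1 than 2, 16 lower in humanized against SPF, 5 higher and 1 lower in SPF against germ-free postweaned, 23 higher and 2 lower in SPF against germ-free preweaned, 2 higher in the interaction and 1 lower in germ-free postweaned against preweaned. That table moved the median of all genes by 0.80 in SPF minus germ-free preweaned and by -0.67 in humanized minus SPF. With it centred on each sample's median gene, an alternative chosen after seeing the data, 13 were higher in humanized against SPF, 1 higher in SPF against germ-free postweaned and 6 higher in SPF against germ-free preweaned, where limma called 5 genes. With column set 1 alone, also added later, 3 were higher in the interaction. With set 2 alone, 1 was higher in germ-free preweaned 1 than 2, 6 higher in SPF against germ-free preweaned and 2 lower in germ-free postweaned against preweaned. With the column sets as separate samples, limma called 23 genes in humanized against SPF, 56 in SPF against germ-free preweaned and 44 in germ-free postweaned against preweaned, of which 0 were members, and 3 members were higher in the interaction and 1 lower in germ-free postweaned against preweaned. When only the 13 members detected in every sample were kept, 9 were lower in germ-free preweaned 1, 4 higher and 2 lower in humanized against SPF, 0 higher in SPF against germ-free postweaned, 4 higher in SPF against germ-free preweaned, 2 higher and 6 lower in the interaction, 6 higher in germ-free postweaned against preweaned, and 3 higher and 1 lower in SPF postweaned against preweaned. With an offset of 16, 1 was higher in germ-free preweaned 1 than 2, 7 lower in SPF against germ-free preweaned and 3 lower in germ-free postweaned against preweaned. limma called 0 genes in all 7 fitted comparisons, with unadjusted p under 0.05 for 70 to 1241 genes. No paired analysis was possible because the labels carry no replicate numbers and only 1 group has 2 samples.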
